A study of Caenorhabditis elegans with 2 samples.

Results

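The genes described here encode subunits of SNAPc, the complex that activates small nuclear RNA genes, and the proteins that work with it to transcribe piRNA genes in Caenorhabditis elegans. They were chosen by name: snpc-4, snpc-1.1, snpc-1.2, snpc-1.3, snpc-3.1, snpc-3.2 and snpc-3.4 for SNAPc, and prde-1, tofu-4 and tofu-5 for piRNA transcription. All 10 names were found once among the 19973 protein-coding genes of the nuclear chromosomes. Binding of SNPC-4 to these genes was read from ChIP-seq peak lists, so the data ask where SNPC-4 lay at genes for its own complex and its partners. The worms were whole young adults of mixed sex, strain OP179, with the mutation unc-119(ed3) on chromosome III and the transgene wgIs179, which supplies eGFP-tagged SNPC-4. The labels give 2 biological replicates of this single group and report no deletion of the chromosomal snpc-4 gene, so the snpc-4 locus is present both on chromosome I and in the transgene. Whole animals mix germ line and soma, and the peaks do not show which cells they come from.

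SNAPc binds the promoters of small nuclear RNA genes and recruits RNA polymerase II or III to them. SNPC-4 is its large DNA-binding subunit with Myb repeats, and the snpc-1 and snpc-3 genes encode worm versions of the smaller subunits 1 and 3. In the worm germ line SNPC-4 also works with PRDE-1, TOFU-4 and TOFU-5 at piRNA genes, called 21U-RNA genes in this species, most of which lie on chromosome IV. SNPC-1.3 is known for its role in piRNA transcription in the male germ line.

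The peak lists used were all on the ce11 build. The optimal list, filtered by the authors for reproducibility, held 1781 peaks with signal values from 31.1 to 1801. The relaxed lists, which the authors deposited as peaks together with background, held 30000 peaks for the pooled reads, 20730 for replicate 1 and 30000 for replicate 2. A peak was given to a gene when its summit lay within 1000 bp of the annotated 5' end or inside the gene, and negative offsets are upstream. Signal is the value of the authors' peak caller. It has a different scale in each list, so between lists only ranks and positions are compared, and rank 1 is the strongest peak. Read depth is unknown, and no test between samples is possible with 1 group.

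SNPC-4 had an optimal peak at 2 of the 10 genes, snpc-4 itself and snpc-3.4. By the same rule 8.47% of all protein-coding genes had one, which would be close to 1 gene in 10, and without snpc-4 the count was 1 of 9. Both are among the 7 genes for SNAPc subunits, and snpc-4 is the gene that the transgene also carries. None of the 3 partner genes prde-1, tofu-4 and tofu-5 had an optimal peak, which for 3 genes is near the share of 8.47%. These counts therefore do not set the SNAPc genes apart from the partner genes. In the pooled relaxed list 7 of 10 genes had a peak, against 51.3% of protein-coding genes. The counts were 8 in replicate 1, against 47.4%, and 6 in replicate 2, against 55.1%. The relaxed lists thus reach about as many genes as they miss, so these counts say little about the 10 genes as a set.

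**Figure D1:**
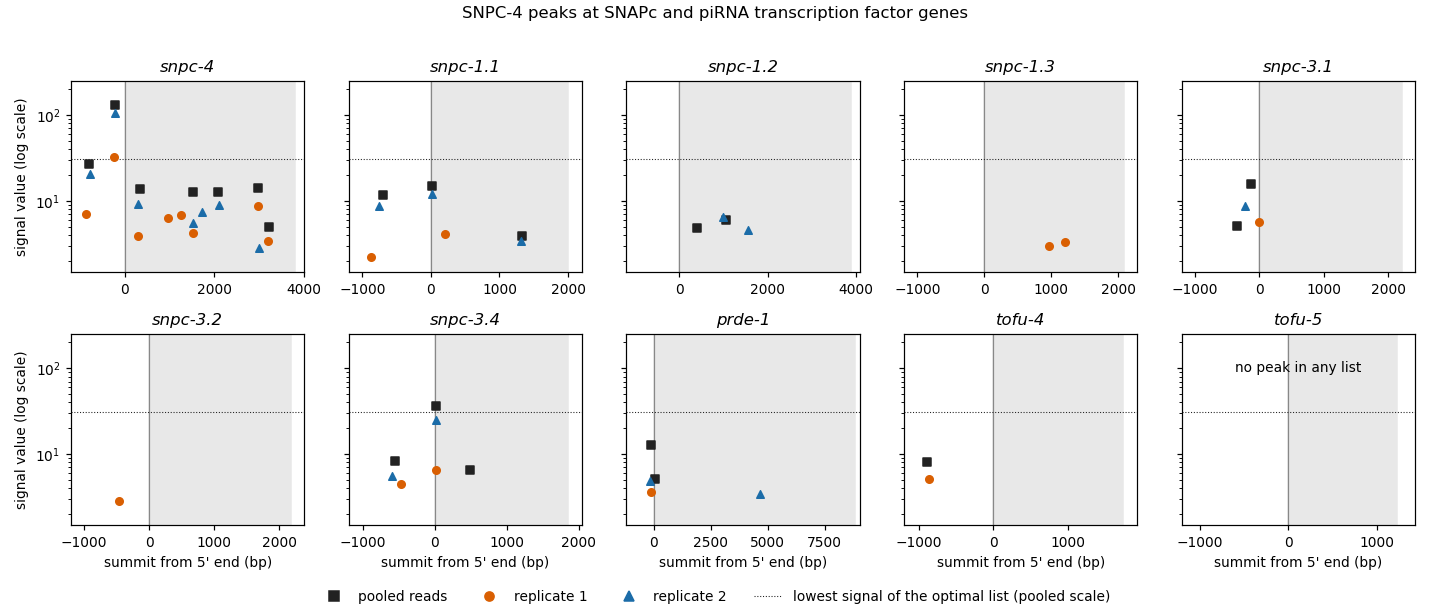
Peaks at each of the 10 genes by distance of the summit from the annotated 5' end (horizontal axis, bp) and signal value (vertical axis, log scale), for the pooled reads (squares), replicate 1 (circles) and replicate 2 (triangles). The grey band is the gene and the dotted line is the lowest signal of the optimal list, which applies to pooled values only; snpc-4 and snpc-3.4 hold the pooled squares above it, at 131 and 36.8.

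The strongest peak at any of these genes lay upstream of snpc-4, the gene of the precipitated protein (WBGene00001568, ce11 chromosome I, 8962322 to 8966129, plus strand). Its optimal signal was 131 at rank 161 of 1781, and the peak ran from 8962011 to 8962181 with the summit at -210 bp. Replicate 1 had a signal of 32.8 at rank 271 of 20730 with the summit at -232 bp. Replicate 2 had 105.8 at rank 130 of 30000 with the summit at -212 bp. The summits of the 3 lists therefore lay within 22 bp of each other, between the gene and its upstream neighbour F32H2.11, and no other annotated 5' end lay within 1000 bp. Among 680 optimal peaks whose only 5' ends within 1000 bp were those of protein-coding genes, this peak stood at position 25, where the median signal was 43.1. Only 0.676% of protein-coding genes had a stronger pooled peak. Replicate 1 gave 1.24% and replicate 2 gave 0.536%. The transgene adds copies of the snpc-4 locus, and how far they account for the strength and rank of this peak was not tested.

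Ranked by their strongest optimal peak within 1000 bp of the 5' end, snpc-4 was number 95 of 1454 protein-coding genes. The 3 genes just above it were Y57G11C.499 (optimal signal 132.5), Y65A5A.1 (133) and ruvb-2 (135), which codes for a RuvB-like protein. Those just below were the alpha tubulin gene tba-7 (128), Y73F8A.14 (127) and F36A2.7 (126). Of these 6 genes, 4 lie on chromosome IV, while 1069 of the 1454 ranked genes lie off it. So few neighbours in rank do not show a likeness of snpc-4 to genes of that chromosome.

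The snpc-4 gene also held peaks along its body, where the other 9 genes had few. The pooled list had 7 peaks by the rule, of which 5 had their summits in coding exons of snpc-4, between 340 and 3221 bp from the 5' end. Their signals ran from 5.01 to 14.1. Replicate 1 had 8 peaks here and replicate 2 had 7, with 5 and 3 summits in coding exons. Over each whole list, 17.5% of pooled, 15.9% of replicate 1 and 19.1% of replicate 2 summits lay in coding exons. These shares also count summits outside genes, so they are not a like comparison for peaks placed at 1 gene. At least 7 pooled peaks were found at 2.50% of protein-coding genes, and at least 8 peaks in replicate 1 at 0.746%. Both of these shares count genes of all lengths. Among the other 9 genes the pooled number ran from 0 to 3.

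The peaks did not stop at the ends of snpc-4. In the pooled list 28 peaks followed each other with gaps under 5 kb, from -17747 to 14279 bp around the 5' end of snpc-4, a span of 32027 bp. Stretches of this kind were not measured elsewhere in the genome, so how unusual such a span is was not tested. The span depends on the gap allowed: with gaps under 2000 bp the pooled stretch held 18 peaks over 12644 bp, with 8680 bp in replicate 1 and 13038 bp in replicate 2. Before the longer pooled stretch came a gap of 26659 bp without a summit, and after it one of 6303 bp. With gaps under 5 kb, the stretch of replicate 2 held 34 peaks over 36153 bp, between gaps of 25815 and 30170 bp. In replicate 1 it held 16 peaks over 15899 bp, between gaps of 5512 and 9578 bp. The stretch is thus longer in replicate 2 than in replicate 1, whose list is shorter. The median signal within it was 11.2 in the pooled list, 6.56 in replicate 1 and 7.16 in replicate 2, against 7.38, 4.17 and 5.53 over each whole list.

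Counted within 20 kb of the gene, snpc-4 had 6.62 pooled peaks per 10 kb, 5.25 in replicate 1 and 7.76 in replicate 2. The medians over protein-coding genes were 2.33, 1.64 and 2.43. Of all protein-coding genes, 4.23% were as dense or denser in the pooled list, 3.02% in replicate 1 and 3.01% in replicate 2. Off chromosome IV, 93 of 16692 were as dense or denser in the pooled list, 5 in replicate 1 and 10 in replicate 2. These counts include snpc-4. No 21U-RNA gene lay within 20 kb. The transgene carries extra copies of the snpc-4 locus, its end points and copy number are not given in the sources used here, and no control library was analysed. Binding at the chromosomal gene and at the transgene cannot be told apart in these lists, and how far the added copies account for the dense peaks was not tested.

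The pooled stretch overlapped 15 protein-coding genes, and 12 of them had a pooled peak, against 51.3% of all protein-coding genes. The stretch was drawn from pooled summits, so a high count follows from how it was drawn and is no result about these genes. It held 3 optimal peaks. These 3 and the genes beside them were named after their values were seen. The strongest, with a signal of 180 at rank 121, lay 7858 bp beyond the 5' end of snpc-4. Its summit was at -99 bp from spd-2, a gene for centrosome assembly, at -111 bp from F32H2.10 and at -959 bp from thoc-3. The weakest, with a signal of 32.3 at rank 1649, lay at -9118 bp from snpc-4 and 35 bp inside a tRNA gene. The gene mdt-31, for a Mediator subunit, overlaps the end of snpc-4 on the same strand and had a best pooled signal of 28.8 with no optimal peak.

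The gene unc-119, mutated in this strain and commonly used as the rescue marker of such transgenes, had no optimal peak. It had 6 pooled peaks, all more than 1000 bp inside the gene, with a highest signal of 11.3. By the same rule snpc-4 had 7 pooled peaks, and snpc-1.1 and snpc-3.4, the highest of the others, had 3 each. These counts are not adjusted for gene length. The lengths were 3808 bp for snpc-4, 2005 bp for snpc-1.1 and 1847 bp for snpc-3.4, while a replicate 2 summit lay 5996 bp into unc-119. The share of genes with as many peaks as unc-119 was not counted. Replicate 1 had 1 peak at unc-119 and replicate 2 had 5. Peaks within 20 kb stood at 1.94 per 10 kb in the pooled list, 1.73 in replicate 1 and 2.16 in replicate 2, each near the median over protein-coding genes given above.

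**Figure D2:**
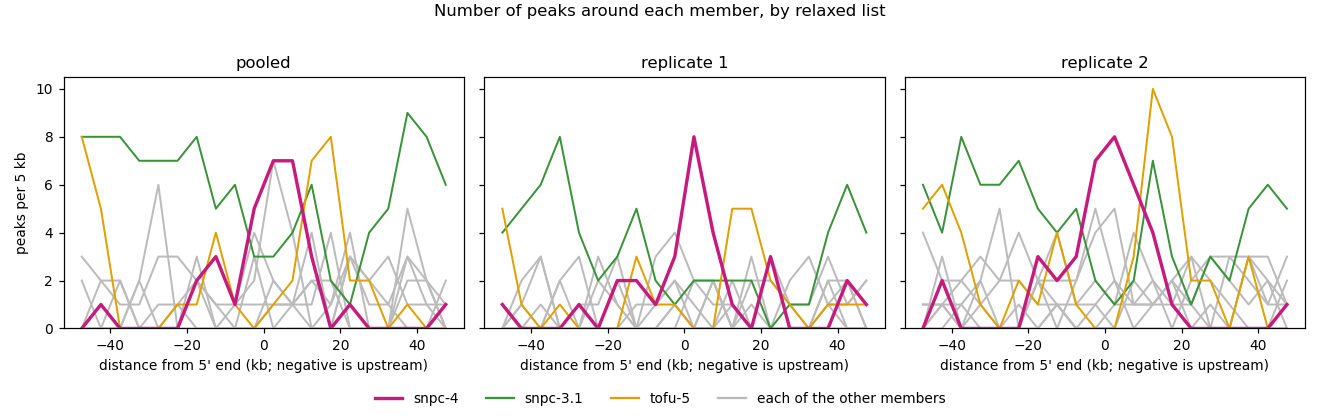
Number of peak summits per 5 kb (vertical axis) by distance from the 5' end of each gene (horizontal axis, kb), in the pooled, replicate 1 and replicate 2 relaxed lists. The line of snpc-4 rises to 7 pooled peaks per 5 kb at the gene and to 8 in each replicate, and is at 0 or 1 pooled peak beyond 20 kb on either side; snpc-3.1, in a 21U-RNA-rich part of chromosome IV, and tofu-5 also pass through dense places, and snpc-1.1, among the grey lines, also has 7 pooled peaks in the 5 kb from its 5' end.

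Of the subunit 3 genes, snpc-3.4 had the optimal peak (WBGene00011367, ce11 chromosome III, 4020037 to 4021883, plus strand). Its signal was 36.8 at rank 1234 of 1781, not far above the lowest optimal signal of 31.1. The peak ran from 4019895 to 4020218, with the summit 20 bp inside the gene, in the 5' UTR. Replicate 2 had a signal of 25.2 at rank 1175 with the same summit. Replicate 1 had 6.53 at rank 5864 with its summit 8 bp away. The place of the peak was thus shared by both replicates, while its rank was not: only replicate 2 placed it among its 1781 strongest peaks. Over the whole optimal list 63.2% of summits lay within 200 bp of such a top peak of replicate 1, and 77.9% within 200 bp of one of replicate 2.

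A stronger pooled peak was found at 6.36% of protein-coding genes, with 17.7% in replicate 1 and 6.02% in replicate 2. No other 5' end lay within 1000 bp of the summit, and the nearest upstream gene, the beta tubulin gene tbb-2, lies 2409 bp away. By strongest optimal peak, snpc-3.4 was number 1088 of 1454 protein-coding genes. The genes just above it were rabr-1, gid-1 and eif-3.I, a translation initiation factor gene, and those just below were Y39G10AR.32, mcm-4, a gene for DNA replication licensing, and F59E12.17. Their optimal signals all rounded to 36.8.

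The upstream sequences of 3 genes are shown because a peak lay at their 5' ends in all 3 relaxed lists and no repeated 36-mer occurred within 500 bp of those ends. Both also hold for snpc-4, whose sequence is not shown here. The sequences are read 5' to 3' on the strand of each gene from the RefSeq WBcel235 (ce11) genome and end 1 base before the annotated 5' end. Capitals mark a match to any of 4 motifs searched on both strands. The motifs were CTGTTTCA, the core of 21U-RNA promoters, and CGGAACCC, AAACGCGC and AGACGCAG, taken from earlier results on peaks at snRNA genes and at protein-coding genes.
snpc-3.4, chrIII:4019837-4020036, plus strand: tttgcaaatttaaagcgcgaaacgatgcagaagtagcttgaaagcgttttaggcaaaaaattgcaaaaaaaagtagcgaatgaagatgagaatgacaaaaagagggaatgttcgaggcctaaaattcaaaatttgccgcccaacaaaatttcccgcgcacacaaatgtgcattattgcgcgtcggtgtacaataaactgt
snpc-1.1, chrII:7781302-7781501, minus strand: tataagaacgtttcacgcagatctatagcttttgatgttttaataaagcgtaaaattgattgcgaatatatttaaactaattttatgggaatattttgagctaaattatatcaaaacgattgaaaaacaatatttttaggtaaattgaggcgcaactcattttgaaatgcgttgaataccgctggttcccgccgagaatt
prde-1, chrV:15538060-15538243, plus strand: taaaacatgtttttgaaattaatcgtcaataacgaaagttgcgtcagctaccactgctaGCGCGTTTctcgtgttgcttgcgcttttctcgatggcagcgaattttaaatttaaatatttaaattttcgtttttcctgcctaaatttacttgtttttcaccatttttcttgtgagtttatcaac
The prde-1 sequence is shorter because the annotated gene F21A3.4 on the same strand ends 184 bp upstream. The C and G content was 39% upstream of snpc-3.4, 30.5% upstream of snpc-1.1 and 33.7% upstream of prde-1.

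The motif search covered 250 bp before to 50 bp after the 5' end. Of the 10 genes, prde-1 had the sole match, AAACGCGC on the opposite strand from -125 to -118 bp, close to its pooled summit at -134 bp. Over 19973 protein-coding promoters of that window, CTGTTTCA was found in 2.32%, CGGAACCC in 0.265%, AAACGCGC in 1.44% and AGACGCAG in 3.54%. Within 150 bp of the strongest pooled summit, snpc-4, snpc-3.4 and the other 4 genes besides prde-1 with a pooled peak held no match. Of all optimal summits, 11.6% had CTGTTTCA within that distance, 5.22% CGGAACCC, 6.51% AAACGCGC and 10.5% AGACGCAG. Of all pooled summits the shares were 9.66%, 1.45%, 1.46% and 4.78%, and the strongest pooled summits of the genes other than snpc-4 and snpc-3.4 were not optimal peaks. The first of these motifs is that of the genes whose transcription these proteins serve, and the peaks at snpc-4 and snpc-3.4 lay over sequence without any of the 4. Each motif was also absent from most optimal summits, so its absence does not set these peaks apart. The motifs were chosen with earlier results of these data known, so matches and shares at summits are no independent test of them.

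The other subunit 3 genes, snpc-3.1 and snpc-3.2, are similar copies. Of the 36-base stretches in the body of snpc-3.1 (chromosome IV, 5484039 to 5486258), 51.3% also occur in snpc-3.2 (chromosome I, 252107 to 254294), and 65.8% occur elsewhere in the genome. At snpc-3.2 the latter share was 67.3%. Reads of that length from these stretches cannot be placed at 1 of the copies, and the read length is not given in the sources used here, so the values of both genes are uncertain. The pooled list had a peak at snpc-3.1 with a signal of 15.8 at rank 5947, its summit at -125 bp. The replicates placed it differently: replicate 1 had its summit at -6 bp with a signal of 5.63, and replicate 2 at -214 bp with 8.84. Within the pooled peak, 50.2% of 36-base stretches were repeated in the genome. The summit also lay at -330 bp from puf-7, a gene for a Pumilio-family RNA-binding protein on the other strand.

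The surroundings of snpc-3.1 were rich in weak peaks. It had 8.76 pooled peaks per 10 kb within 20 kb, and no gene off chromosome IV was as dense in that list. In replicate 1 55 such genes were as dense and in replicate 2 58. The gene had 47 21U-RNA genes within the same distance. Only 2.99% of protein-coding genes had more 21U-RNA genes so near, and the other 9 genes had 0 to 3. Its own strongest pooled signal was passed by 19.3% of protein-coding genes. No pooled or replicate 2 peak was found at snpc-3.2, and replicate 1 had a single one, at -455 bp, with a signal of 2.87 at rank 15455.

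None of the subunit 1 genes had an optimal peak. At snpc-1.1 (WBGene00015513, chromosome II, 7779297 to 7781301, minus strand) the pooled signal was 14.9 at rank 6473, with the summit 11 bp inside the gene in the 5' UTR. Replicate 2 had 12.2 at rank 4982 at the same base. Replicate 1 had 4.18 at rank 10336, and its summit lay 196 bp away inside an intron. The gene shares its upstream region of 264 bp with spdl-1 on the other strand, a gene for chromosome segregation, and the summit lay at -276 bp from that gene. The pooled list held another peak at -705 bp, with a signal of 11.9.

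At snpc-1.2 (chromosome III, 13165659 to 13169541) the pooled list had 2 weak peaks inside the gene, with signals of 6.08 and 4.80, replicate 2 had 2 and replicate 1 had none. At snpc-1.3 (chromosome V, 5437084 to 5439168), known for piRNA transcription in the male germ line, replicate 1 alone had peaks. There were 2 inside the gene, with signals of 3.34 and 2.99. The nearest pooled summit lay 4406 bp downstream of the 5' end. Neither gene showed a peak that both replicates shared.

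Among the partner genes, prde-1 had a weak peak at the same place in both replicates (WBGene00008995, chromosome V, 15538244 to 15547086, plus strand). Its pooled signal was 12.8 at rank 7874, with the summit at -134 bp. Replicate 1 had 3.65 at rank 12113 at the same base, and replicate 2 had 4.85 at rank 17454 with the summit at -155 bp. A stronger peak was found at 23.5% of protein-coding genes in the pooled list, 31.8% in replicate 1 and 41.1% in replicate 2.

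At tofu-4 (chromosome I, 4824904 to 4826639, minus strand) the pooled list had a peak at -893 bp with a signal of 8.02, and replicate 1 had one at -866 bp with 5.08. Replicate 2 had none. This summit lay 460 bp inside htp-3, a gene for meiotic chromosome axes that is transcribed the other way. At tofu-5 (chromosome I, 7069440 to 7070665) no list held a peak by the rule. The nearest pooled summit lay 3022 bp from its 5' end, past the end of the gene, although 25 pooled peaks lay within 20 kb, or 6.06 per 10 kb.

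**Figure D3:**
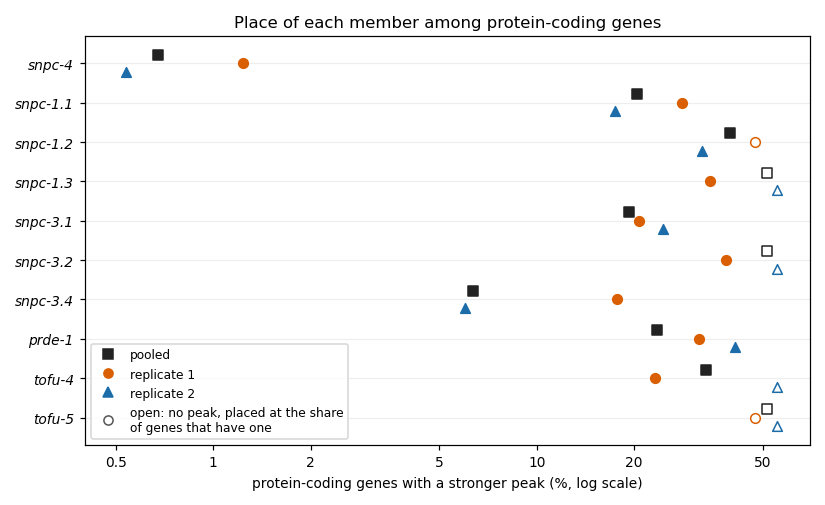
Share of the 19973 protein-coding genes with a stronger peak than each gene (horizontal axis, percent, log scale), in the pooled list (squares), replicate 1 (circles) and replicate 2 (triangles); filled symbols are genes with a peak and open symbols genes without. In each list the leftmost symbols are those of snpc-4, from 0.536% to 1.24%, followed by snpc-3.4, from 6.02% to 17.7%, and every other gene stands at 17.5% or more.

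The order of the genes by pooled signal was snpc-4, snpc-3.4, snpc-3.1, snpc-1.1, prde-1, tofu-4 and snpc-1.2, with no pooled peak at snpc-1.3, snpc-3.2 and tofu-5. Signals of snpc-3.1, snpc-1.1 and prde-1, from 12.8 to 15.8, changed order between replicates, and the pooled values carry no error. Replicate 1 ranked snpc-3.1 ahead of snpc-1.1 and prde-1, and replicate 2 ranked snpc-1.1 ahead of snpc-3.1. The lower places moved too: tofu-4 stood ahead of snpc-1.1 and prde-1 in replicate 1, and snpc-1.2 ahead of prde-1 in replicate 2. Of the 13 pooled peaks at genes other than snpc-4, 6 (46.2%) lay within 200 bp of a summit in both replicates, 1 in replicate 1 only, 3 in replicate 2 only and 3 in neither. For all 30000 pooled peaks the share in both was 31.5%. Each replicate was matched to the pooled summit, so a match in both does not mean that the replicates shared a summit. The peak of snpc-3.1 counts as such a match, with replicate summits at -6 and -214 bp. Of the 10 genes, 9 have a nearest upstream protein-coding gene on the other strand, against 45.4% of protein-coding genes. The gap to that neighbour ran from 253 bp at tofu-5 to 14253 bp at snpc-3.2.

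Other genes of the piRNA pathway were read by the same rule. Of 29 names listed, 25 were in the annotation, and 4 of these had an optimal peak, slfl-4, nurf-1, ife-3 and pgl-1, or 16% beside the 8.47% of all protein-coding genes. The pooled list held a peak at 19 of the 25, with a median strongest signal of 16.0, where the 7 genes above had 14.9 and protein-coding genes with a peak 11.5. The highest optimal signal was 58.8 at slfl-4, which codes for a Schlafen-like protein that takes part in cutting piRNA precursors. Its summit lay at -204 bp from slfl-4 and at -58 bp from the 21U-RNA gene 21ur-4486. Replicate 1 had 30.0 and replicate 2 had 34.6 there.

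The nurf-1 peak, with an optimal signal of 50.03, lay in an intron 9064 bp into this chromatin remodelling gene and at -148 bp from the microRNA gene cel-mir-5595. At ife-3, which codes for a cap-binding protein, the signal was 39.1 at -410 bp, a summit that also lay 501 bp inside B0348.10. At pgl-1, a P granule gene, it was 33.9 with the summit at -2 bp, which is also -188 bp from him-3. The Piwi gene prg-1 had no optimal peak and a pooled signal of 14.7. The gene tra-1, known to repress snpc-1.3, had a pooled signal of 22.0 and no optimal peak. No list held a peak at parn-1 or tofu-2, genes for piRNA trimming and precursor cutting.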

How the data were processed

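Young adult worms of 1 group with 2 biological replicates were analysed by ChIP-seq, per the labels. The starting point was the peak lists the authors deposited on ce11, in narrowPeak columns: a signal value, a -log10 q value and a summit per peak. Per the text file deposited with each library, relaxed lists were called against a control, on each replicate alone and on the reads of both, and the optimal peaks derive from these. For the aligner, the peak caller and the reproducibility threshold, nothing is given in the sources used here. Optimal peaks all carry 1 deposited -log10 q value, so it was left out. All 1781 optimal peaks had the same summit in the pooled list and were its strongest peaks. Lists on ce10 were not used, because no coordinates were converted.

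Summits were placed on genes of Ensembl release 115 (WBcel235, the ce11 assembly) with Python 3.11.15 and numpy 2.4.6. The placement was tested on simulated data. Shares over all protein-coding genes stand beside the counts, and no p-value is given. The genes, the pathway list and the motifs were chosen with earlier results of these data known. Named genes are all 10 members, pathway genes with an optimal peak, genes within 1000 bp of a strongest peak, unc-119 and the 3 genes next in rank on each side. Others, prg-1, tra-1, parn-1, tofu-2, tbb-2, F32H2.11, F21A3.4 and those around snpc-4, were added after values were seen. Peaks were also placed at 300 and 500 bp, by overlap, in the stronger 50% of the list and in each replicate's 1781 strongest peaks. Depth is unknown, so no interval is given.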

Additional observations from a re-analysis of the deposited data

How the results depend on the processing

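Of 33 alternative counts, 23 stayed within 1.5 times the count reported. Optimal peaks at the 10 genes fell to 1 among the stronger 50% of the list, which kept snpc-4, and ranged from 1 to 2 when either replicate's strongest peaks stood in for the list: without replicate 2, snpc-3.4 was lost. Leaving out snpc-4, an alternative added after seeing the data, left 1 gene. Cut at 1781 peaks, the pooled list held 2 of the genes, replicate 1 held 1 and replicate 2 held 2, so most relaxed counts rest on weak peaks. At 300 bp from the 5' end the replicate 1 count fell to 5. Other piRNA pathway genes with an optimal peak fell to 2 at 300 bp and to 2 in the stronger 50%, and ranged from 2 to 5 with 1 replicate left out. Without replicate 1 they were slfl-4 and nurf-1. Without replicate 2 they were ife-3, slfl-4, attf-6, pgl-1 and hrde-1, so only slfl-4 was kept both times. The causes of these changes were not tested, apart from the shorter lists and distances. No paired analysis was possible because there is 1 group.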
